A study of Mus musculus with 4 samples.

Results

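The genes described here are the semaphorins, plexins, ephrins, Eph receptors, Slits, Robos, netrins and Unc5 receptors, which are the classical axon guidance ligands and receptors. They were chosen by symbol alone and number 66 of the 32285 genes in the matrices: 20 semaphorins, 9 plexins, 8 ephrins, 14 Eph receptors, 3 Slits, 4 Robos, 4 netrins and 4 Unc5 receptors. They were followed in single-cell RNA libraries from the tibialis anterior and gastrocnemius of 2-month-old male mice. All animals carried S100GFP-tg, a reporter in which the S100B promoter drives GFP and so labels Schwann cells, and they were either WT or Sod1KO (Sod1-/-), a model with transient loss of muscle innervation at this age. The muscles of 4 mice per genotype were pooled and sorted by fluorescence, which gave 4 libraries (WT GFP+, Sod1KO GFP+, WT GFP- and Sod1KO GFP-) and 1 library per group. Each genotype difference below is therefore a difference between 2 libraries with no replicate check, and every interval is an exact 95% interval that covers counting error only.

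Semaphorins are secreted or membrane-bound ligands that act through plexins, and the secreted class 3 semaphorins bind plexins together with the neuropilins Nrp1 and Nrp2. Ephrins are held at the cell surface and bind Eph receptor kinases on touching cells, Slits bind Robos, and netrins bind Dcc, Neo1 and the Unc5 receptors. These pairs steer growing axons, migrating Schwann cells and new vessels, and Sema3a is known as a product of terminal Schwann cells at the neuromuscular junction.

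After the filters 4557, 5925, 1638 and 5143 cells were left in WT GFP+, Sod1KO GFP+, WT GFP- and Sod1KO GFP-, with medians of 12335, 13001, 8067 and 14753 UMIs. Any pair of libraries shared at most 10 cell barcodes. Sod1, the targeted gene, was at 89.7 CPM (UMIs of a gene per 1000000 UMIs) in WT GFP+ and 95.9 CPM in Sod1KO GFP+, and at 123 and 109 CPM in the GFP- libraries. Its level was therefore no lower in Sod1KO GFP+ than in WT GFP+. The sources do not say whether the 3′ tags of Sod1 lie outside the deleted part, so these values do not check the genotype, and Sod1KO below means the library so labelled. Cell classes are clusters named by their marker genes and carry the suffix "-like". The clustering used none of the 66 guidance genes. In WT GFP+ and Sod1KO GFP+ there were 1076 and 656 myelinating Schwann cell-like (mSC-like) cells and 391 and 888 terminal or nonmyelinating Schwann cell-like (tSC-like) cells. The GFP- libraries held 4 and 2 mSC-like and 0 and 7 tSC-like cells, so Schwann cells were compared only in GFP+.

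Guidance genes differed in the class where their level was highest, and some were shared widely. Plxnd1 and Epha4, for instance, were each at 20 CPM or more in 7 of 10 classes of WT GFP+. Of the 66 genes, 49 reached 20 CPM in at least 1 of 10 classes of WT GFP+, and for 38 of these 49 the class with the highest level was the same in Sod1KO GFP+. The mSC-like cells led for 11 genes, the arterial endothelial-like cells for 7 and the mesenchymal-like cells for 6. There were 14 genes under 20 CPM in every class of both GFP+ libraries, among them Slit1, Robo3, Epha8, Epha10 and Efna3, and 0 genes had no UMI at all in the 4 libraries.

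**Figure D1:**
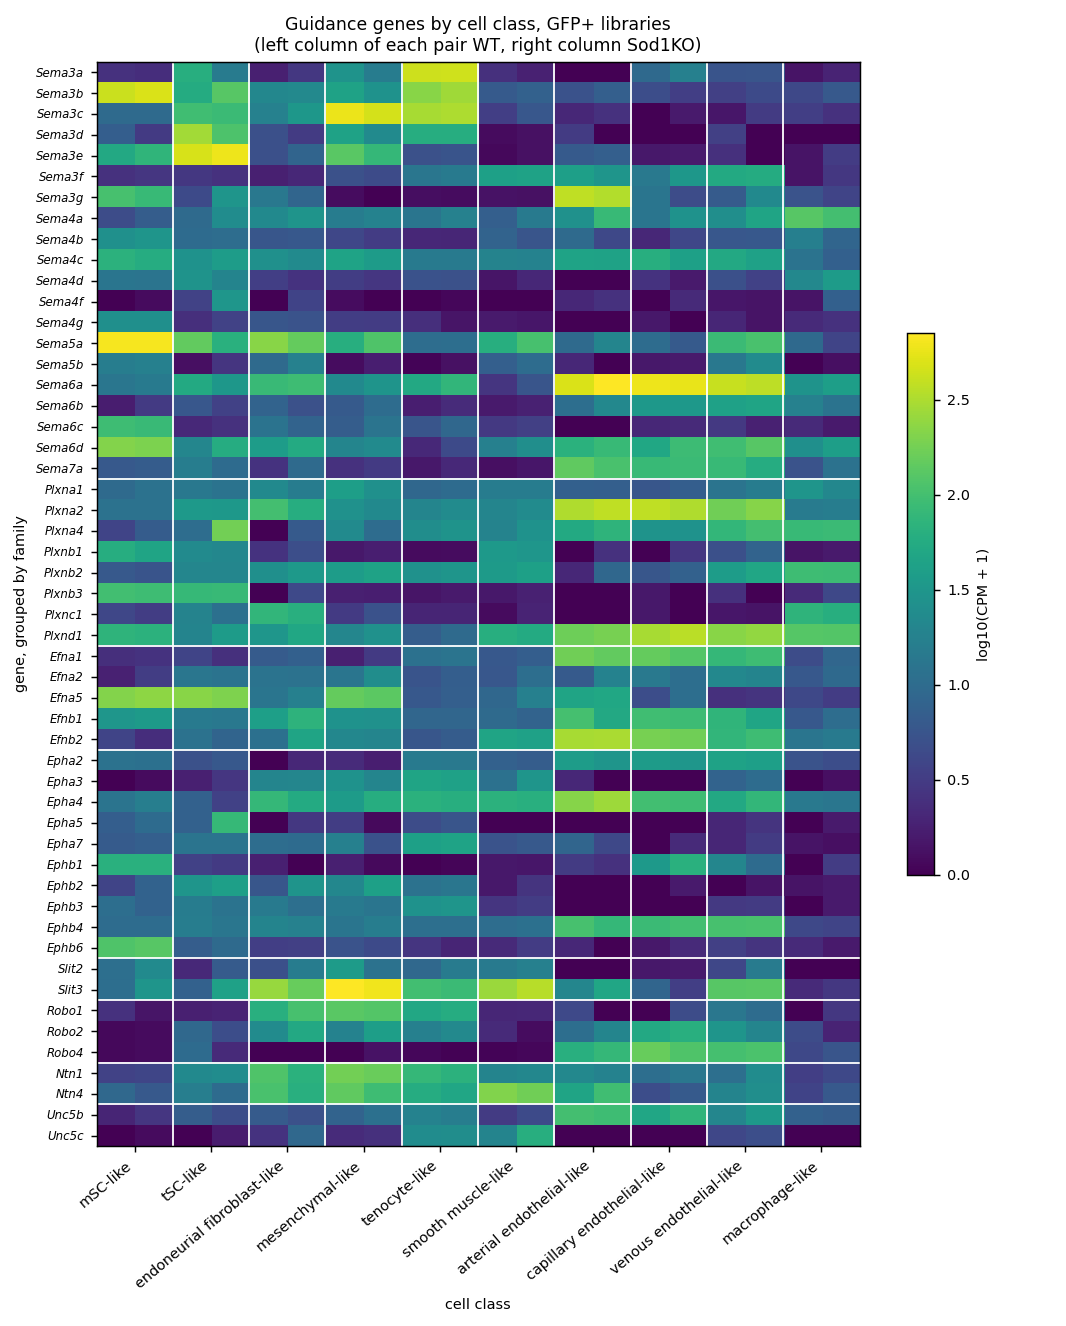
Level of each guidance gene (rows, grouped by family) that reached 20 CPM in at least 1 class of a GFP+ library, as log10(CPM + 1), in 10 cell classes (pairs of columns, WT on the left and Sod1KO on the right). The columns of a pair look alike for most genes, and Plxna4 and Epha5 in tSC-like cells are exceptions.

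The mSC-like cells had the highest level of several transmembrane semaphorins among the 10 classes. Sema5a, a transmembrane semaphorin with thrombospondin repeats, was at 644 CPM (95% interval 626–663) in WT and 654 CPM (631–679) in Sod1KO. Sema6d was at 209 and 194 CPM and Sema6c at 90.6 and 83.5 CPM in the same order. Secreted ligands were also high there, with Sema3b at 423 CPM in WT and 492 CPM in Sod1KO and Sema3g at 103 and 81.7 CPM. The receptor side of these cells held Plxnb3, which binds Sema5a, at 97.1 and 91.7 CPM, the kinase-inactive receptor Ephb6 at 114 and 129 CPM, and Ephb1 at 62.9 and 63.0 CPM. Levels of all these genes in the mSC-like cells differed by less than 2-fold between the libraries.

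Among the 10 classes compared in GFP+, the secreted semaphorins Sema3e and Sema3d were highest in the tSC-like cells of both libraries. Sema3e, a ligand of Plxnd1, was at 478 CPM in WT and 604 CPM in Sod1KO, against 51.2 and 71.4 CPM in mSC-like cells. Sema3d was at 285 CPM in WT and 112 CPM in Sod1KO tSC-like cells, while its level in WT mSC-like cells was 6.17 CPM. Neither gene was confined to tSC-like cells. Sema3e was at 131 CPM in WT mesenchymal-like cells and at 266 CPM in proliferating-like cells of Sod1KO GFP+. Sema3d was at 58.1 CPM in WT tenocyte-like cells. In Sod1KO GFP- it reached 514 CPM in lymphatic endothelial-like and 292 CPM in perineurial-like cells. Efna5, a glycosylphosphatidylinositol-linked ephrin, was shared by both Schwann classes, at 218 and 198 CPM in the tSC-like and 208 and 234 CPM in the mSC-like cells of WT and Sod1KO. Plxnb3 was also shared, at 80.3 and 82.8 CPM in tSC-like cells, and was at 3.25 CPM or less in every class outside the Schwann cells shown in the plot of levels by class.

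The vessels carried the textbook arteriovenous pair and a set of receptors for semaphorins and Slits. Efnb2, the arterial ephrin, was at 296 CPM in arterial, 182 CPM in capillary and 74.6 CPM in venous endothelial-like cells of WT GFP+, and at 309, 172 and 91.1 CPM in Sod1KO. Its receptor Ephb4, known as a venous marker, was at 105, 86.9 and 105 CPM in WT and 78.7, 95.1 and 107 CPM in Sod1KO, with no venous excess over arterial cells in WT. Sema3g, a secreted arterial semaphorin, was at 378 CPM in WT arterial, 11.7 CPM in WT capillary and 5.51 CPM in WT venous cells. Plxnd1, the receptor for Sema3e, was at 164, 298 and 221 CPM, and Robo4, the endothelial Robo, at 62.2, 154 and 102 CPM in the same 3 classes of WT. Epha4 was at 216 CPM and Unc5b at 99.7 CPM in WT arterial cells, and both were lower in venous cells, at 52.1 and 19.5 CPM. Plxna2 and Sema6a, a plexin and a semaphorin that bind each other, were both highest in endothelial classes, at 378 and 601 CPM in the capillary cells of WT.

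Among the 10 classes, Slit3, Ntn1 and Sema3c were highest in mesenchymal-like, Sema3a in tenocyte-like and Ntn4 in smooth muscle-like cells. Slit3 was at 697 CPM in mesenchymal-like, 264 CPM in smooth muscle-like and 256 CPM in endoneurial fibroblast-like cells of WT GFP+, and at 623, 354 and 155 CPM in Sod1KO. Robo1, a Slit receptor, was at 132 CPM in mesenchymal-like and 61.9 CPM in endoneurial fibroblast-like cells of WT. Sema3a in tenocyte-like cells was at 430 CPM in WT and 438 CPM in Sod1KO. Sema3c was at 588 CPM in WT mesenchymal-like and 301 CPM in WT tenocyte-like cells. Ntn1 was at 175 CPM in the mesenchymal-like cells of WT, and Ntn4, a netrin of basement membranes, was at 203 CPM in WT smooth muscle-like cells. Macrophage-like cells carried the semaphorin Sema4a at 128 CPM and the plexins Plxnd1, Plxnb2, Plxna4 and Plxnc1 at 125, 91.4, 82.7 and 70.0 CPM in WT. The perineurial-like cells were few, 42 in WT and 89 in Sod1KO, and were therefore not compared between genotypes. They held Efnb3 at 145 and 76.5 CPM, Ephb2 at 115 and 143 CPM and Plxnc1 at 145 and 108 CPM.

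Of the co-receptors, Nrp1 was highest in capillary endothelial-like cells of both GFP+ libraries, whereas the class with the highest Nrp2 level differed between them. Nrp1 was at 824 CPM in capillary endothelial-like cells of WT GFP+ and at 20.9 CPM in mSC-like and 44.5 CPM in tSC-like cells. Nrp2 was at 343, 310 and 272 CPM in macrophage-like, venous and capillary cells of WT and at 244, 392 and 388 CPM in those of Sod1KO. In the mSC-like and tSC-like cells of WT it was at 64.8 and 34.2 CPM. Dcc, the canonical netrin receptor of neurons, was at 1.11 CPM in tSC-like cells and had 0 UMIs in mSC-like cells of both GFP+ libraries, whereas Neo1, its paralogue, was at 45.8 and 32.1 CPM in the tSC-like and mSC-like cells of WT.

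The genotypes were compared within each class as the log2 ratio of CPM, Sod1KO over WT. A gene was tested where the 2 libraries together gave at least 50 UMIs in the class, and a gene past 2-fold in either direction was called. With 1 library per group this is a limit of size and not a test across animals. Of the 66 genes, 58 could be tested in at least 1 of 13 comparisons and 31 were called in at least 1.

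**Figure D2:**
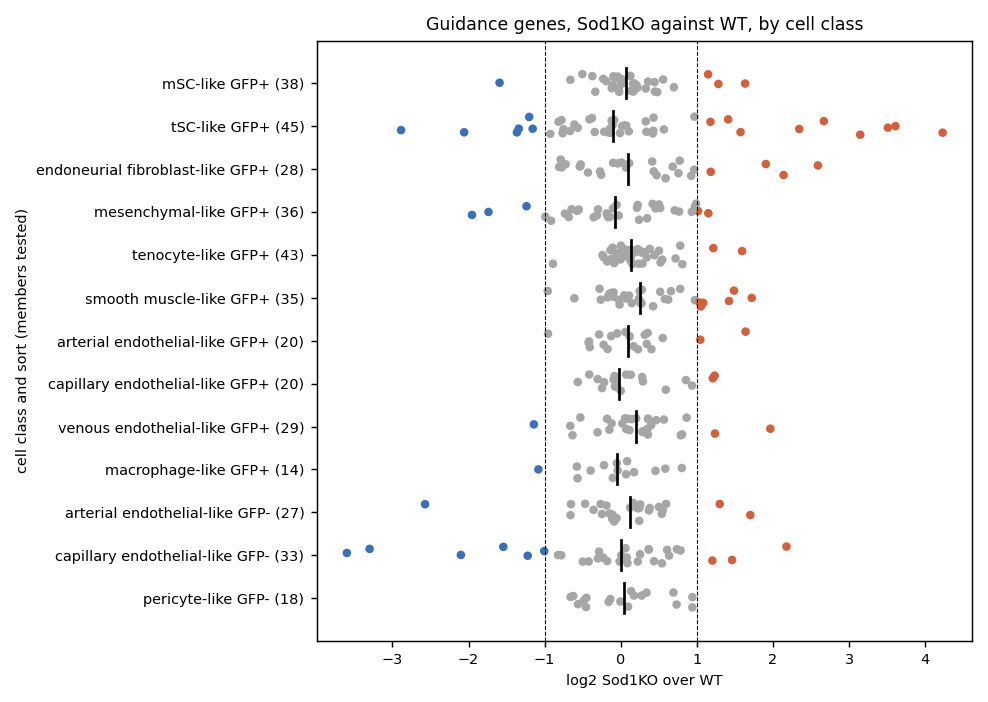
Log2 ratio of Sod1KO over WT (x axis) for each tested guidance gene (points) in 13 comparisons (rows, number of tested genes in brackets), with the median as a black bar, dashed lines at 2-fold and called genes coloured orange where higher and blue where lower in Sod1KO. The row of tSC-like cells holds 15 called genes of 45, and its points reach from −2.89 to 4.23.

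The tSC-like cells had the most called genes. There 15 of 45 tested guidance genes were past 2-fold, 9 higher and 6 lower in Sod1KO, while 8.96% of all 11834 genes tested in these cells were past 2-fold (3.97% higher and 4.99% lower). The remaining 21 guidance genes had too few UMIs. The median log2 ratio was −0.11 over the 45 genes and −0.04 over all genes, with genes called in both directions. By means of per-cell CPM, for which the share of all genes is not given, 10 were higher and 4 lower. The 45 genes had a median of 330 UMIs, against 443 for all tested genes.

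Receptors of 2 families stood out among the higher genes. Plxna4, a plexin that transmits class 3 and class 6 semaphorin signals, had 59 UMIs in WT and 1897 in Sod1KO, or 9.34 CPM (7.11–12.1) against 175 CPM (167–183), a log2 ratio of 4.23 (3.85 to 4.63). Epha5, a receptor for A-class ephrins, had 42 and 879 UMIs, or 6.65 and 81.1 CPM, a log2 ratio of 3.61 (3.16 to 4.09). Its ligand Efna5 was high in the same cells of both libraries and differed little, at 218 and 198 CPM. In WT the class with the highest Plxna4 level was the macrophage-like one, and in Sod1KO it was the tSC-like one.

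The ligands that were higher in Sod1KO were semaphorins and Slits. Sema4f, a transmembrane semaphorin, was at 2.69 CPM in WT and 30.6 CPM in Sod1KO (log2 3.51, 2.81 to 4.30), and Sema3g was at 3.33 and 29.4 CPM (log2 3.15, 2.51 to 3.86). Slit3 was at 6.65 and 42.3 CPM (log2 2.67, 2.21 to 3.16) and Slit2 at 1.11 and 5.63 CPM, the latter from 7 UMIs in WT (log2 2.34, 1.21 to 3.72). Their receptors Robo1 and Robo2 were low in these cells, at 0.79 and 8.24 CPM in WT and 0.92 and 3.69 CPM in Sod1KO. Sema6d was at 19.5 and 57.9 CPM, Sema4a at 8.71 and 23.2 CPM and Sema3b at 56.1 and 127 CPM, with log2 ratios of 1.57, 1.41 and 1.18.

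The 6 lower genes were 3 semaphorins and 3 receptors. The secreted Sema3a was at 59.5 CPM (53.7–65.9) in WT and 14.3 CPM (12.1–16.7) in Sod1KO, a log2 ratio of −2.06 (−2.34 to −1.78). Sema3d was at 285 and 112 CPM (log2 −1.34, −1.45 to −1.23), and the transmembrane Sema5a at 146 and 63.2 CPM (log2 −1.20, −1.35 to −1.06). Robo4, Epha4 and Robo2 were past 2-fold lower too, with log2 ratios of −2.89, −1.36 and −1.16, but from 13 to 56 UMIs per library. The neuropilins were under 2-fold, with Nrp1 at 44.5 and 31.3 CPM and Nrp2 at 34.2 and 34.5 CPM.

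**Figure D3:**
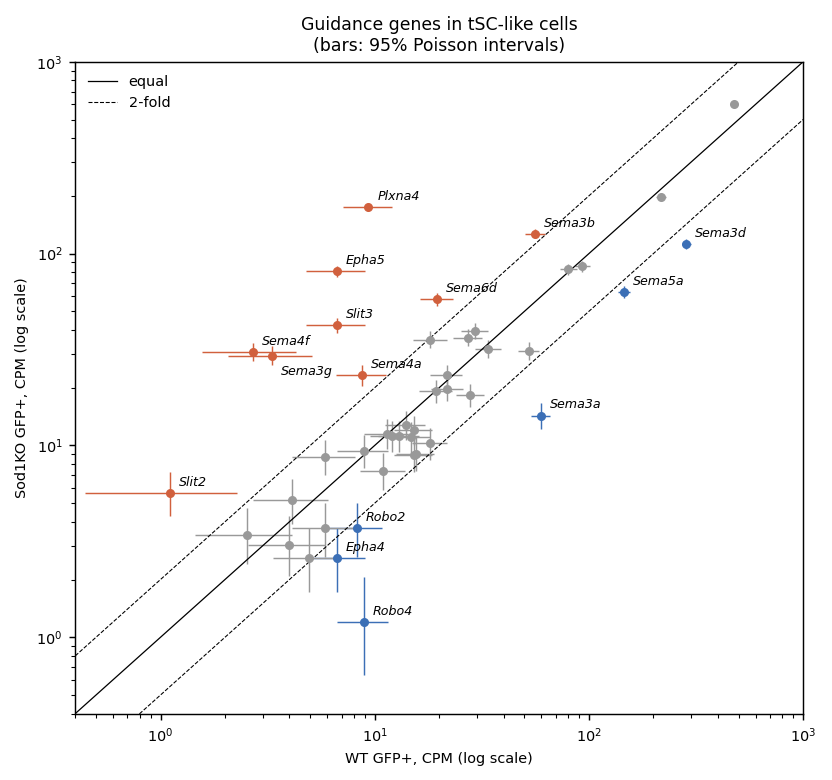
CPM of the 45 tested guidance genes in tSC-like cells of WT GFP+ (x axis, log scale) and Sod1KO GFP+ (y axis, log scale), with 95% Poisson intervals as bars, equality as a solid line and 2-fold as dashed lines. Plxna4 and Epha5 lie farthest above the upper dashed line, at 175 and 81.1 CPM in Sod1KO, and Sema3d, Sema5a and Sema3a lie below the lower one.

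Some tSC-like cells carried endothelial genes, and the low Robo and Eph values moved with them. The 10 endothelial markers summed to 313 CPM in the tSC-like cells of WT and 128 CPM in those of Sod1KO. Robo4 was found in 12 tSC-like cells of WT and 7 of Sod1KO, of which 10 and 7 had UMIs of at least 5 endothelial markers, against 4 of the 379 and 10 of the 881 cells without Robo4. Leaving out all tSC-like cells with 5 or more of these markers, an alternative added after seeing the data, left Robo4 with 2 and 0 UMIs and turned Robo2 to 0.94 and Epha4 to 0.74 on the log2 scale, from 11 and 38 and from 6 and 18 UMIs. The same step left Plxna4 at 4.19, Epha5 at 3.51, Sema3d at −1.38 and Sema3a at −2.18. It gave 14 called genes, 11 higher and 3 lower, since Plxnd1 (log2 1.93) and Epha2 (log2 1.15) then passed 2-fold. The share of all genes past 2-fold after this step is not given. The lower levels of Robo4, Robo2 and Epha4 thus rested on 14 cells of WT and 17 of Sod1KO, whereas the other called genes did not. Other lists differed too. The tSC list itself summed to 4831 CPM in WT and 2292 CPM in Sod1KO. The endoneurial fibroblast (743 and 380 CPM) and pericyte lists (300 and 123 CPM) were also lower in Sod1KO. The mSC (674 and 983 CPM) and lymphatic endothelial lists (36.6 and 240 CPM) were higher. Of the 7 lymphatic markers only 1 was over 20 CPM in each library. It was Reln, a guidance ligand whose levels in these cells are given below. The macrophage list was lower in Sod1KO through Lyz2 alone (4646 and 426 CPM), with its other 8 markers at 2.86 CPM or less. Haemoglobin genes were higher (Hbb-bs at 8.39 and 936 CPM). The part of all these markers in the differences of guidance genes was not tested.

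The tSC-like class had different clusters in the 2 genotypes. In WT 313 of its 391 cells fell in cluster 12, with Unc80, Bche and Ajap1 among its leading genes, while in Sod1KO 600 of 888 fell in cluster 8, with Olig1, Syt4 and Btc among its leading genes, and 168 in cluster 12. Clusters 30 and 33 held 13 and 27 cells of WT and 87 and 33 of Sod1KO. Within cluster 12, 0 of 34 measured guidance genes were past 2-fold higher and 5 were lower in Sod1KO (Sema3a, Plxna1, Robo4, Ntn4 and Robo2), against 1.94% of all genes past 2-fold. Sema3a had 79 UMIs in Sod1KO. Plxna1, Robo4, Ntn4 and Robo2 had only 16, 12, 15 and 7, with upper log2 bounds of −0.24, −0.13, −0.18 and −0.51. The Robo4 and Robo2 values in this cluster still include cells that carried endothelial markers. Between cluster 8 and cluster 12 of Sod1KO, 14 of 36 were past 2-fold, 9 higher and 5 lower in cluster 8, against 12.6% of all genes.

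The genes below differed more between these clusters than inside cluster 12. Plxna4 in cluster 12 was at 7.50 CPM in WT and 8.27 CPM in Sod1KO, and in cluster 8 of Sod1KO at 203 CPM. Epha5 was at 5.75, 2.76 and 93.0 CPM in the same order, Sema4f at 0.70, 0.79 and 37.5 CPM and Slit3 at 3.31, 2.36 and 55.2 CPM. Sema3d was at 302 and 258 CPM in cluster 12 and at 68.9 CPM in cluster 8 of Sod1KO, and Sema5a at 151, 171 and 27.8 CPM. Sema3a differed both ways, at 64.0 CPM in WT and 31.1 CPM in Sod1KO within cluster 12 (log2 −1.04, −1.41 to −0.69) and at 8.74 CPM in cluster 8 of Sod1KO. Sema3e was at 486 and 497 CPM in cluster 12 of WT and Sod1KO and at 343 CPM (100 UMIs) and 584 CPM in cluster 8. The 38 WT cells of cluster 8 gave Plxna4 at 48.0 CPM from 14 UMIs, Epha5 at 10.3 CPM from 3 UMIs and Slit3 at 65.2 CPM from 19 UMIs, so that Plxna4 and Epha5, but not Slit3, were lower in WT than in Sod1KO inside this cluster too. Without clusters held to more than 80% by 1 library, 5 guidance genes of the class were past 2-fold (the share of all genes is not given), and Plxna4 was at a log2 ratio of 1.26. That value came from cluster 33, where 27 WT cells had 2 Plxna4 UMIs and 33 Sod1KO cells had 30, since the ratio in cluster 12 was 0.14 (−0.69 to 0.93). In the same setting Epha5 was at −0.040 and Sema5a at 0.057.

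**Figure D4:**
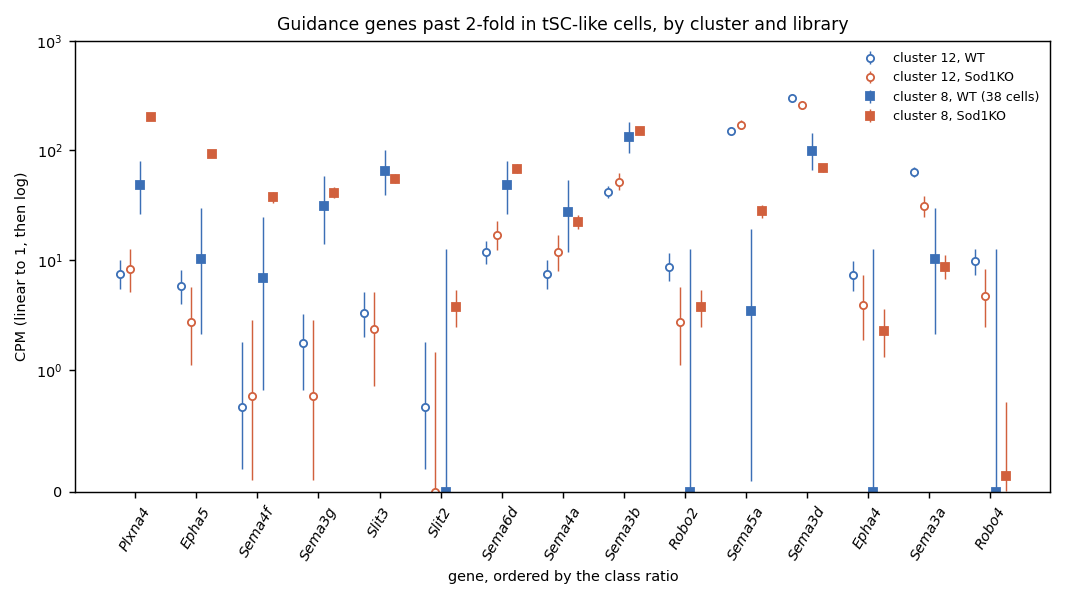
CPM (y axis, linear to 1 and log above) of the 15 guidance genes past 2-fold in tSC-like cells, in cluster 12 (open circles) and cluster 8 (squares) of WT (blue) and Sod1KO (orange) GFP+, with 95% Poisson intervals. The open circles of Plxna4 overlap, at 7.50 and 8.27 CPM, and its Sod1KO square is at 203 CPM.

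The same receptors were higher in another population of the same libraries. Cluster 9 carried myelin and perineurial genes together, so it had no class name, and it had 314 cells in WT and 323 in Sod1KO. There 8 of 49 measured guidance genes were past 2-fold higher in Sod1KO and 0 lower, against 6.83% of all genes past 2-fold either way. Plxna4 was at 7.36 and 64.1 CPM (log2 3.12, 2.68 to 3.60), Epha5 at 1.96 and 40.6 CPM (log2 4.37, 3.54 to 5.34) and Sema4f at 0.98 and 20.2 CPM (log2 4.37, 3.21 to 5.83). Slit3 was at 6.38 and 30.5 CPM and Sema3e at 29.9 and 128 CPM. Robo2 was higher here, at 12.9 and 37.2 CPM, while Sema3g was alike at 27.1 and 27.3 CPM. Since cluster 9 has Schwann genes, a mixture of other cells into it cannot be told apart from expression by its own cells.

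The share of cells with a UMI followed the CPM. After each cell was thinned to 2000 UMIs, 1.55% (0.57–3.35) of tSC-like cells of WT and 21.9% (19.2–24.8) of Sod1KO had a Plxna4 UMI, with 5 and 7 cells left out as too shallow. For Epha5 the shares were 1.30% and 10.9%, and for Sema3d 37.0% and 15.3%. Unthinned, they were 8.70% and 47.3% for Plxna4, at median depths of 12381 and 9542 UMIs. In the mSC-like cells, where Plxna4 is low, 0.93% and 1.38% of thinned cells had a Plxna4 UMI (median depths 6238 and 6110), so the WT share in tSC-like cells was near this level and the Sod1KO share was above it.

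The called genes of the tSC-like cells differed widely in length. The 9 higher genes spanned 11.6 to 587 kb with a median of 326 kb and the 6 lower ones 12.1 to 1555 kb with a median of 329 kb, and the 30 tested guidance genes under 2-fold spanned a median of 40.2 kb. Among all genes tested in these cells, 16% of those of at least 100 kb and 7.59% of the shorter ones were past 2-fold, and among guidance genes 47.6% of 21 and 20.8% of 24. Under 100 kb, 4 guidance genes were higher and 1 was lower. The part of gene length in these differences was not tested.

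Promoters were read for 3 genes that differed in tSC-like cells, 2 of the higher ligands and the lower Sema3d, to show whether letters of 2 well-known motifs are present. They are the 250 bases before the transcription start in RefSeq (GRCm38.p6), written 5′ to 3′ on the strand of the gene. Capitals mark the SOX motif ACAAAG, searched on both strands, so CTTTGT is its reverse complement. Sema4f is at chr6:82939770-82940019 on the minus strand, Slit3 at chr11:35121206-35121455 on the plus strand and Sema3d at chr5:12382916-12383165 on the plus strand.
Sema4f: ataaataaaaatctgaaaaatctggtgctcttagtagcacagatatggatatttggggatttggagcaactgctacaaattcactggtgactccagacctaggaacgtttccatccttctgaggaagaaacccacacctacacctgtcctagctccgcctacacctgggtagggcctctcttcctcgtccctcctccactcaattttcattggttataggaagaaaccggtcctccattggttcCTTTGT
Slit3: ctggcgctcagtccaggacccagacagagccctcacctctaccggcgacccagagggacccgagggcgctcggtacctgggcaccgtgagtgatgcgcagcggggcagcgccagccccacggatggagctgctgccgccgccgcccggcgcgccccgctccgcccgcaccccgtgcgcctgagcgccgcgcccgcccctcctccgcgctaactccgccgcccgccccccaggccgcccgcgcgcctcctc
Sema3d: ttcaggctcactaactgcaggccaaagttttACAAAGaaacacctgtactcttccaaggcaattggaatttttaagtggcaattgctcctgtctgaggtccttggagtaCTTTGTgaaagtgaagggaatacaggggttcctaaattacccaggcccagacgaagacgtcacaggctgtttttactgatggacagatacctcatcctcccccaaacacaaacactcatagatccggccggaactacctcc
Sema3d had 2 matches, Sema4f 1 and Slit3 0. The 13 called genes with an entry had 19 promoters, of which 4 held this motif, those of Sema3d, Sema4f, Sema3a and 1 of Sema6d, and 9 of the 13 genes had no match. Of all 32851 promoters of the same length in the RefSeq table, 16.5% held this motif, and 9.59% of the 73 promoters of 57 guidance genes did. The AP-1 motif TGANTCA was in 6.75% of all promoters and 4.11% of the guidance gene promoters, and in 0 of the 19. The matches of these letters are a description, and Plxna4 had no entry in the table.

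The mSC-like cells had fewer called genes than the tSC-like cells. Of 38 tested guidance genes 4 (10.5%) were past 2-fold, 3 higher and 1 lower in Sod1KO, against 1.65% of all genes (0.814% higher and 0.834% lower). Medians were 0.07 over the 38 genes and −0.03 over all genes on the log2 scale. All 4 called genes were at 30.0 CPM or less. Slit3 was at 9.68 and 30.0 CPM (log2 1.63, 1.20 to 2.07), Slit2 at 9.96 and 22.1 CPM (log2 1.15, 0.69 to 1.61) and Ephb2 at 2.81 and 6.82 CPM from 20 and 30 UMIs. Sema3d was at 6.17 and 2.05 CPM from 44 and 9 UMIs (log2 −1.59, −2.81 to −0.54). Of the UMIs of Slit3, 1 in WT and 35 in Sod1KO came from cluster 32, which held 26 and 41 cells, and without it the main mSC-like cluster gave a log2 ratio of 1.26. Under a stricter cell filter (over 500 genes, under 5% mitochondrial) the ratios of Slit3 and Slit2 were 0.77 and 0.63. The mesenchymal markers, whose cells are rich in Slit3, summed to 1117 and 1119 CPM in the mSC-like cells. The tenocyte markers summed to 58.1 and 88.0 CPM and the smooth muscle markers to 618 and 582 CPM. The part of cluster 32 or of other cells in the Slit3 and Slit2 values was not tested.

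Sema4a, a transmembrane semaphorin of immune and endothelial cells, was higher in Sod1KO in 12 of 13 comparisons and past 2-fold in 6 of them. In arterial endothelial-like cells it was at 26.8 and 83.4 CPM in GFP+ (25 and 53 UMIs, log2 1.64, 0.93 to 2.39) and at 15.4 and 50.1 CPM in GFP- (log2 1.70, 1.08 to 2.39). In capillary cells it was at 11.7 and 27.1 CPM in GFP+ (log2 1.21, 0.44 to 2.01) and at 7.97 and 36.0 CPM in GFP- (log2 2.18, 1.75 to 2.63). Smooth muscle-like and tSC-like cells were the other 2. In venous cells it was at 24.5 and 44.7 CPM, under 2-fold. Clusters of a class differed. In tSC-like cells the log2 ratio was 0.66 in cluster 12, −0.29 in cluster 8 and 1.40 in cluster 33 (4 and 13 UMIs), while cluster 30 had 0 and 39 UMIs. In smooth muscle-like cells it was 1.17 in cluster 3 and 0.25 in cluster 25. In capillary cells of GFP+ and GFP- it was 1.52 and 2.91 in cluster 1 but −0.21 and −0.51 in the smaller cluster 26. Macrophage-like cells, where the Sema4a level was highest, went the other way, at 128 and 97.6 CPM (log2 −0.40, −0.62 to −0.17). The GFP+ and GFP- libraries of a genotype came from 1 pool of mice, so the 2 sorts are not independent. The 7 erythroid markers were also higher in Sod1KO in these endothelial classes, at a sum of 12.9 and 7314 CPM in arterial and 2036 and 25970 CPM in capillary cells of GFP+, and 154 and 3308 and 5952 and 9683 CPM in those of GFP-. They were alike in smooth muscle-like cells (13.42 and 13.98 CPM), where Sema4a was past 2-fold, and lower in Sod1KO in venous cells (3893 and 351 CPM), where Sema4a was at 24.5 and 44.7 CPM. Their part in the Sema4a values was not tested further.

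**Figure D5:**
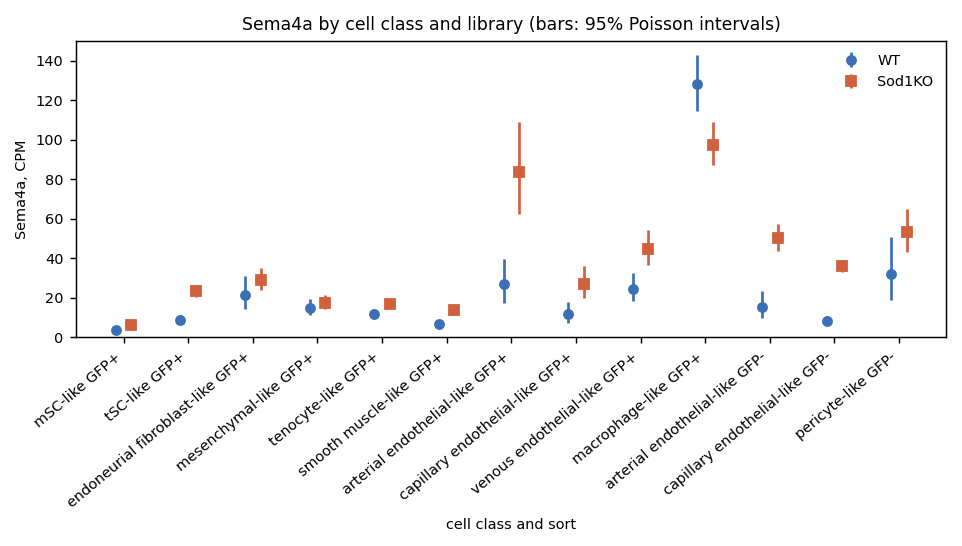
Sema4a level in CPM (y axis, from 0) in 13 cell classes and sorts (x axis) in WT (blue circles) and Sod1KO (orange squares), with 95% Poisson intervals as bars. The Sod1KO value is the higher one in every class except the macrophage-like cells, at 97.6 against 128 CPM in WT.

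Among the endothelial classes of GFP+ few other guidance genes were past 2-fold. In arterial cells 2 of 20 were called, both higher, against 2.83% of all genes past 2-fold (1.85% higher and 0.986% lower, with median log2 ratios of 0.09 for guidance genes and −0.03 for all genes, in which order medians are given below), and beside Sema4a the second was Ntn4, at 45.0 and 92.9 CPM (log2 1.04, 0.45 to 1.65). In capillary cells 2 of 20 were higher, against 2.03% of all genes (0.909% higher and 1.13% lower, medians −0.03 and −0.05), the second being Sema3f, a secreted semaphorin that binds Nrp2, at 13.3 and 31.3 CPM (log2 1.23, 0.52 to 1.98). In venous cells 3 of 29 were called, 2 higher and 1 lower, against 2.43% of all genes (1.58% higher and 0.855% lower, medians 0.20 and −0.01). Sema3g was at 5.51 and 21.5 CPM there (log2 1.96, 1.01 to 3.05), Ntn1 at 10.0 and 23.6 CPM, and Ephb1 was lower, at 19.5 and 8.85 CPM (log2 −1.14, −1.98 to −0.34). The UMIs behind these values were few, 11 to 59 per library. The 2 venous clusters differed. Ephb1 was at a log2 ratio of −0.17 (−1.57 to 1.20) in cluster 20 and −1.71 (−2.86 to −0.66) in cluster 22. Ntn1 was at 0.86 (−0.13 to 1.91) and 1.96, and Sema3g was past 2-fold higher in both, at 3.55 (1 and 12 UMIs) and 1.60.

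In smooth muscle-like cells 6 of 35 guidance genes were past 2-fold, all 6 higher in Sod1KO, against 3.14% of all genes (2.67% higher and 0.467% lower, medians 0.25 and 0.01). Unc5c, a netrin receptor that mediates repulsion, was at 18.4 CPM (16.1–20.8) in WT and 60.5 CPM (55.4–66.0) in Sod1KO, a log2 ratio of 1.72. It was higher in both clusters of the class, at 16.4 and 51.3 CPM in cluster 3 and 43.0 and 122 CPM in cluster 25. The netrins Ntn4 and Ntn1 differed less in these cells, at 203 and 169 CPM and at 18.2 and 20.1 CPM. Epha3 was at 10.6 and 29.8 CPM in the class, and cluster 25, which had 57 and 79 cells, held it at 124 and 174 CPM. Sema4a, Efna5, Sema3c and Sema6a were at 16.5 CPM or less in both libraries.

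In mesenchymal-like cells 5 of 36 genes were called, 2 higher and 3 lower, against 2.35% of all genes (1.36% higher and 0.991% lower, medians −0.08 and 0.03). Slit2 was at 35.8 and 10.7 CPM (log2 −1.74, −2.20 to −1.29), Epha7 at 16.5 and 4.26 CPM (log2 −1.96, −2.71 to −1.25) and Plxna4 at 21.9 and 9.26 CPM (log2 −1.24, −1.77 to −0.72), while Robo2 was at 17.3 and 38.3 CPM and Ephb2 at 20.1 and 40.6 CPM. Of these 5 genes, Slit2 alone was past 2-fold in the same direction in both clusters of the class with an interval on that side of 0 in each, at 56.2 and 14.8 CPM in cluster 4 and 12.5 and 1.78 CPM in cluster 21. Cluster 4 made up 63.4% of the class in WT and 76.1% in Sod1KO. Within it Robo2 and Ephb2 were under 2-fold, at log2 ratios of 0.83 and 0.52, while Epha7 and Plxna4 were at −3.44 and −1.73. In cluster 21 Epha7 was at −0.33, Robo2 had 3 UMIs in each library, Plxna4 had 2 and 5, and Ephb2 had 4 and 28. In endoneurial fibroblast-like cells 4 of 28 were called, all 4 higher, against 6.9% of all genes (4.2% higher and 2.7% lower, medians 0.09 and 0.00). Ephb2 was at 4.76 and 28.7 CPM there (log2 2.59, 1.42 to 4.07), its ligand Efnb2 at 10.3 and 45.4 CPM (log2 2.14, 1.33 to 3.08), Robo2 at 23.0 and 52.2 CPM and Slit2 at 3.97 and 14.9 CPM. The 79 WT cells of this class gave only 5 UMIs of Slit2 and 6 of Ephb2. The 8 perineurial markers summed to 61.1 CPM in the WT and 375 CPM in the Sod1KO class (1 and 0 of them at 0), and the 9 tenocyte markers to 62.7 and 189 CPM. Perineurial-like cells had the highest Ephb2 and Robo2 levels of Sod1KO GFP+, at 143 and 65.3 CPM. The part of these cells in the differences was not tested.

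Tenocyte-like cells had 2 called genes of 43, both higher, against 2.45% of all genes (1.84% higher and 0.61% lower, medians 0.13 and 0.01), Sema6d at 1.13 and 3.40 CPM and Efna4 at 0.99 and 2.31 CPM, from 17 and 15 UMIs in WT. Their main ligands Sema3a, Sema3c and Sema3b were under 2-fold, at 430 and 438, 301 and 319, and 220 and 274 CPM. In macrophage-like cells 1 of 14 was called, against 4.12% of all genes (3.13% higher and 0.994% lower, medians −0.05 and −0.06), Sema4b at 15.9 and 7.51 CPM.

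In the GFP- libraries the capillary endothelial-like cells had 9 called genes of 33, 3 higher and 6 lower, against 8.83% of all genes (4.07% higher and 4.76% lower, medians 0.01 and −0.04). Beside Sema4a, the higher genes were Efna2 at 7.64 and 21.0 CPM and Plxna4 at 11.4 and 26.2 CPM. The lower genes were Sema3c, Slit3, Ntn4, Sema5a, Ntn1 and Plxnb2, with log2 ratios from −3.60 to −1.01. Cluster 29 held 123 WT cells and 2 Sod1KO cells of this class and carried some mesenchymal markers. The mesenchymal list summed to 5970 CPM in the WT class and 1389 CPM in the Sod1KO class. The tenocyte (360 and 19.5 CPM), smooth muscle (1088 and 160 CPM) and pericyte lists (2702 and 1564 CPM) were also higher in WT. The erythroid list was lower, at 5952 and 9683 CPM. In cluster 26, with 20 and 93 cells, Slit3 had 19 UMIs in WT and 2 in Sod1KO. The other lower genes had 11 UMIs or fewer per library there. The part of these clusters in the 6 lower values was not tested. In cluster 1, which held 321 and 1090 cells, the 6 genes ranged from −0.84 to 0.61 on the log2 scale, and Sema4a, Efna2 and Plxna4 were still past 2-fold at 2.91, 1.68 and 1.11. In arterial cells 3 of 27 were called, against 4.67% of all genes (2.43% higher and 2.24% lower, medians 0.12 and −0.05): Sema4a and Efna2 were higher, and Sema5a was lower, at 27.5 and 4.62 CPM. Sema5a was highest in pericyte-like cells of the GFP- libraries, at 300 CPM in WT. In the arterial class the 8 pericyte markers summed to 2218 CPM in WT and 1203 CPM in Sod1KO and the 8 smooth muscle markers to 711 and 231 CPM, with 0 markers of either list at 0, and their part in the Sema5a value was not tested. In pericyte-like cells 0 of 18 were called, against 4.15% of all genes (2.79% higher and 1.36% lower, medians 0.04 and −0.04).

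Genes around these ligands and receptors were read from 3 lists: 10 co-receptors, 12 other guidance ligands and 41 cytoplasmic effectors. In the tSC-like cells 9 of 37 tested effectors were past 2-fold, 6 higher and 3 lower, as were 5 of 10 other ligands, 2 higher and 3 lower, and 1 of 7 co-receptors, with the same 8.96% of all genes as background. Reln, a secreted matrix guidance protein, was at 26.4 and 234 CPM (log2 3.15, 2.92 to 3.38), and Cxcl12, a chemokine that guides axons and cells, was at 145 and 50.2 CPM (log2 −1.53, −1.69 to −1.38). Spon1 was at 172 and 62.9 CPM and Bmp7 at 19.3 and 9.23 CPM. The higher effectors included Trio, a guanine nucleotide exchange factor downstream of netrin receptors, at 98.8 and 202 CPM, Farp2, which links plexins to Rac, at 39.6 and 85.2 CPM, and Dpysl3, a collapsin response mediator, at 29.9 and 73.4 CPM. Met, a partner of plexin B receptors, was at 0.63 and 9.32 CPM, from 4 and 101 UMIs. The median log2 ratio was 0.02 for effectors, −0.41 for other ligands and 0.01 for co-receptors. In mSC-like cells 2 of 31 effectors (Srgap1 higher, Ablim1 lower), 1 of 5 other ligands (Ntng1, lower) and 0 of 4 co-receptors were past 2-fold. The share of all genes past 2-fold in this class was 1.65%.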

How the data were processed

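The authors deposited filtered matrices of UMI counts for each cell barcode (Cell Ranger 7.1.0 in the headers and mm10 in the processing notes, while the methods name a later version and also GRCm39). Muscles of replicate mice were pooled. The study's ambient RNA, doublet and integration tools and its Seurat clusters (4.30 in the processing notes, a later version in the methods) were not applied, and a difference from the study can stem from the rebuilt names.

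Cells with over 200 genes and under 10% mitochondrial UMIs were kept, which left 4767, 6291, 1665 and 5430 of 5498, 7267, 2052 and 6598 barcodes (WT GFP+, Sod1KO GFP+, WT GFP-, Sod1KO GFP-). The 210, 366, 27 and 287 cells with the most simulated doublets among 50 neighbours were removed (0.8% per 1000 barcodes). Clusters came from 2000 variable genes, 30 principal components, 20 neighbours and Leiden resolution 1. Guidance genes were kept out, and 21 would otherwise have been used. A class name needed 3 markers above 20 CPM and 2 times the level in other clusters, limits chosen once clusters had been looked at.

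A class level is its UMIs summed over its cells, per 1000000. In ratios a library with 0 UMIs took the floor of 3 UMIs. Intervals are Poisson for levels, conditional binomial for ratios and Clopper-Pearson for shares. The ratio script was tested on simulated data. A gene was named for its level (highest of its family in a class of at least 50 cells, at 20 CPM or more), for being past 2-fold, or as the partner of such a gene, and list genes at most 4 per list. Where calls were 5 or fewer, all were named. The genes, lists and comparisons were chosen with earlier results of these data known. Gene spans come from RefSeq (GRCm38.p6), which matched 96.8% of the genes tested in tSC-like cells. The software was Python 3.11.15 with leidenalg 0.10.2, igraph 0.11.9, scikit-learn 1.9.0, scipy 1.17.1, numpy 2.4.6 and pandas 2.3.3.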

Additional observations from a re-analysis of the deposited data

Results flagged for a closer look

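Guidance genes past 2-fold in opposite directions in 2 classes of the GFP+ libraries were singled out. Plxna4 had a log2 ratio of 4.23 in tSC-like and −1.24 in mesenchymal-like cells. Slit2 was at 2.34 in tSC-like, 1.91 in endoneurial fibroblast-like and 1.15 in mSC-like cells, and at −1.74 in mesenchymal-like cells. Robo2 was at 1.18 in endoneurial fibroblast-like and 1.15 in mesenchymal-like cells, and at −1.16 in tSC-like cells, a value that turned to 0.94 without the cells that carried endothelial markers. With 1 library per group, these differences between classes were not tested.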

How the results depend on the processing

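No paired analysis was possible because each group is 1 library and the labels carry no shared replicate numbers. Leaving out a replicate was not possible either. Of the 66 genes, 8 reached the UMI limit in no comparison and were not tested. Among them Efnb3 had 1753 UMIs in all libraries together, so its total depth was not low. Among the classes of the Sod1KO libraries its level was highest in perineurial-like cells, which were not compared between genotypes. Of 112 recomputed counts of genes past 2-fold, 80 stayed within 1.5 times. The counts below are given without the share of all genes past 2-fold, which can also change with the setting. They show only how far the number of called guidance genes moved. The cause of each change below was not tested, except where fewer cells or genes were used by construction.

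With at least 20 UMIs in place of 50, the counts were 5 in arterial, 4 in capillary, 9 in endoneurial fibroblast-like, 6 in macrophage-like and 4 in tenocyte-like cells of GFP+, and 5 in arterial and 2 in pericyte-like cells of GFP-. With at least 100 UMIs they were 1 in arterial, 0 in capillary, macrophage-like, tenocyte-like and venous and 2 in mSC-like cells of GFP+, and 1 in arterial cells of GFP-. The stricter cell filter gave 1 in mSC-like cells and 1 in GFP- pericyte-like cells. Keeping doublets gave 5 in capillary and 8 in mesenchymal-like cells of GFP+, and 5 in capillary and 1 in pericyte-like cells of GFP-. With guidance genes allowed in the clustering there were 1 in arterial and 10 in mesenchymal-like cells. Leiden resolution 0.5 gave 4 in capillary cells of either sort. Means of per-cell CPM gave 0 in arterial, 1 in tenocyte-like and 3 in GFP- pericyte-like cells. Subtracting 10% ambient RNA gave 2 in mSC-like, 11 in mesenchymal-like and 4 in tenocyte-like cells. Without clusters held to over 80% by 1 library there were 5 in tSC-like and 3 in GFP- capillary cells. Thinned to 1000 UMIs, 14.8% of Sod1KO tSC-like cells had a Plxna4 UMI and 5.53% an Epha5 UMI.

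Of 457 recomputed ratios of single genes, 412 kept their direction and stayed past 2-fold, 35 kept their direction under 2-fold and 10 reversed. In tSC-like cells, Epha4 turned to 0.29 and Robo2 to 0.52 with doublets kept, and Epha4 to 0.20 with per-cell means. Without clusters held by 1 library, Epha5 turned to −0.040 and Sema5a to 0.057. In GFP- capillary cells, Plxnb2 turned to 0.49 and Slit3 to 1.79 with doublets kept, to 0.58 and 1.79 at resolution 0.5, and Plxnb2 to 0.25 without clusters held by 1 library. Median-of-ratios scaling moved the median of all genes by at most 0.06 (log2).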
